A study of Mus musculus with 5 samples.

Results

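Periostin (Postn), tenascin C (Tnc), SPARC (Sparc), SPARC-like 1 or hevin (Sparcl1) and the thrombospondins Thbs1, Thbs2, Thbs3 and Thbs4 code for matricellular proteins. These 8 genes were chosen by name, with earlier results of these data known. All 8 were found by symbol among the 31055 genes counted. They were followed in GFP+ cells sorted from mouse hindlimb skeletal muscle, before and after injury of the tibia, by single-cell RNA sequencing. All mice were Prx1Cre;mTmG on a C57Bl/6 background, aged 10 to 14 weeks, and cells of 2 mice were pooled in each library. Prx1Cre marks mesenchymal cells of the limb from development on, so GFP reports descent and not a current cell type. One of the 5 libraries came from uninjured muscle (d0). A pair was taken 3 and 5 days after a non-stabilized fracture of the tibia (d3 and d5 post-fracture), and another pair 3 and 5 days after polytrauma, in which the muscle around the fracture was also crushed mechanically (d3 and d5 post-polytrauma). Each condition had 1 library, so no difference was tested, no p-value is given, and every interval covers counting error only. Differences between mice or between preparations were not measured.

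Matricellular proteins are secreted into the extracellular matrix, where they act on cells through integrins, CD36, CD47 and syndecans rather than as the load-bearing fibers. They are low in most resting connective tissue, high in development and repair, and, for tenascin C and thrombospondin 4, high in tendon. SPARC and periostin bind collagen, tenascin C alters adhesion to fibronectin, and thrombospondin 1 can activate latent TGF-beta.

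The conditions of 2 libraries went against their deposited labels. The library deposited as d5 post-fracture holds 6915 barcodes and was used as d3 post-polytrauma, while the library deposited as d3 post-polytrauma holds 2001 barcodes and was used as d5 post-fracture, because the cell numbers given by the study match the deposited libraries only in that order. This assignment is indirect, and the counts below are also given with the conditions as deposited. Unique molecular identifiers (UMIs, 1 per captured transcript) were summed over 4632, 5589, 6201, 1468 and 11941 cells at d0, d3 post-fracture, d3 post-polytrauma, d5 post-fracture and d5 post-polytrauma. The median depth ran from 3640 UMIs per cell at d0 to 34949 at d5 post-fracture. GFP transcripts were found in 97.3% to 99.2% of cells and tdTomato transcripts in 0 to 2 cells of a library. Markers of fibro-adipogenic and mesenchymal progenitors (FAP/MP; 5 genes) summed to 933 to 2332 UMIs per 1000000 (CPM). Those of muscle cells (5 genes) summed to at most 3.72 CPM, of endothelial cells (5 genes) to 3.64 to 48.7 CPM, and of hematopoietic cells (8 genes) to 15.5 to 111 CPM. The d0 and both d3 libraries used the same 480 leads, the first 7 bases of the cell barcode, and shared 405 to 525 barcodes with each other, although 1 kit version is named for all samples. The 2 libraries used as d5 held 849 and 960 leads, shared 944 barcodes with each other, and shared 0 to 3 with the earlier libraries. A difference between d5 and earlier libraries and a difference between these preparations cannot be told apart, whereas d3 against d0 and polytrauma against fracture, as assigned here, stay within 1 set of barcodes.

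Postn and Tnc were lowest at d0 and higher in all 4 libraries after injury. Postn, a collagen-binding protein of fibrous tissue and periosteum, lies on chromosome 3 (54361109 to 54391037, plus strand, GRCm38). Its level was 219 CPM (exact Poisson 95% interval, 213 to 227) at d0, 1069 CPM (1063 to 1076) at d3 post-fracture, 391 CPM (388 to 395) at d3 post-polytrauma, 4039 CPM (4022 to 4056) at d5 post-fracture and 2587 CPM (2580.0 to 2594) at d5 post-polytrauma. The order was d5 post-fracture, d5 post-polytrauma, d3 post-fracture, d3 post-polytrauma and d0, without overlap of the intervals and with an 18.4-fold range. Postn was the member whose level differed most between the injuries at d3, where it was 2.73-fold lower after polytrauma. At d5 it was 1.56-fold lower after polytrauma.

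Tnc, a hexameric glycoprotein of tendon and of healing wounds, lies on chromosome 4 (63959785 to 64047015, minus strand). Its level was 54.0 CPM (50.6 to 57.6) at d0, 445 CPM (440.5 to 449) at d3 post-fracture and 272 CPM (269 to 275) at d3 post-polytrauma. At d5 it was 506 CPM (500.02 to 512) post-fracture and 615 CPM (612 to 619) post-polytrauma. Here the d5 post-polytrauma library was the highest, and the range was 11.4-fold with no overlap. Unlike Postn, Tnc was close in the d3 and d5 post-fracture libraries, which differed by 1.14-fold.

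Sparc and Sparcl1 are related proteins, and their levels went different ways. Sparc, an acidic collagen-binding protein needed for orderly collagen deposition, lies on chromosome 11 (55394500 to 55423183, minus strand). Its level was 6921 CPM (6882 to 6959.7) at d0 and 6909 CPM (6893 to 6925) at d3 post-fracture, 2 libraries whose intervals overlapped. It was 4360.1 CPM (4347 to 4373) at d3 post-polytrauma, 9449 CPM (9423 to 9476) at d5 post-fracture and 7255.5 CPM (7244 to 7267) at d5 post-polytrauma. The whole range of Sparc was 2.17-fold, and the d3 post-polytrauma library stood lowest.

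Sparcl1, which is found in vessel walls and in quiescent stroma, lies on chromosome 5 (104079111 to 104113733, minus strand). It had the widest range of the 8 genes, 49.7-fold, and was the only one of them highest at d0. Its level was 817 CPM (804 to 831) at d0, 16.4 CPM (15.7 to 17.3) at d3 post-fracture and 19.6 CPM (18.7 to 20.5) at d3 post-polytrauma. At d5 it was 49.8 CPM (47.9 to 51.8) post-fracture and 21.2 CPM (20.5 to 21.8) post-polytrauma, so that all 4 libraries after injury stood far below d0. The d5 post-fracture value rests on which cells are counted. Of the 1468 cells of that library, 869 carried barcodes also present in another library, and the other 599 cells gave 107 CPM. Of these 869 cells, only 11 lacked at least 10 times the UMIs of their copy.

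Among the thrombospondins, Thbs1 and Thbs2 form trimers and hold the domains through which they inhibit new vessels, while Thbs3 and Thbs4 form pentamers. Thbs1 lies on chromosome 2 (118111876 to 118127133, plus strand). Its level was 455 CPM (445 to 465) at d0, 344 CPM (341 to 348) at d3 post-fracture, 239 CPM (236 to 242) at d3 post-polytrauma, 331 CPM (326 to 336) at d5 post-fracture and 486 CPM (483 to 489) at d5 post-polytrauma. This was the narrowest range of the 8, 2.04-fold, with d0 and d5 post-polytrauma highest. Thbs2 lies on chromosome 17 (14665500 to 14694235, minus strand) and is known from loose collagen fibrils in its absence. It was 94.1 CPM (89.6 to 98.8) at d0, 232 CPM (229.51 to 236) at d3 post-fracture, 143 CPM (141 to 146) at d3 post-polytrauma, 372 CPM (367 to 377) at d5 post-fracture and 349 CPM (346 to 351) at d5 post-polytrauma. Thbs2 thus followed the same order as Postn over a narrower, 3.95-fold range.

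Thbs3, a pentamer of bone and cartilage, lies on chromosome 3 (89215180 to 89226837, plus strand). It was 88.4 CPM (84.0 to 92.9) at d0, 47.4 CPM (46.1 to 48.8) at d3 post-fracture, 23.5 CPM (22.6 to 24.5) at d3 post-polytrauma, 140.15 CPM (137 to 143) at d5 post-fracture and 76.7 CPM (75.5 to 78.0) at d5 post-polytrauma. Both d3 libraries were the lowest, and the range was 5.96-fold. Thbs3 overlaps Mtx1 on the opposite strand, and how the counting treated strand is not given in the sources used here, so their reads may not be told apart. Mtx1 ran from 26.3 CPM at d0 to 49.5 CPM at d3 post-fracture and was at 29.5 CPM at d5 post-fracture, an order unlike that of Thbs3. Thbs4, the thrombospondin of tendon and muscle attachment, lies on chromosome 13 (92751590 to 92794818, minus strand). It was 459 CPM (449 to 469) at d0, 194 CPM (191 to 197) at d3 post-fracture, 173 CPM (170.25 to 175) at d3 post-polytrauma, 381 CPM (376 to 386) at d5 post-fracture and 486 CPM (483 to 489) at d5 post-polytrauma. The d0 and d5 libraries were high and both d3 libraries low, over a 2.81-fold range. In sums over a library, fewer cells of a type and less RNA per cell cannot be told apart.

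**Figure D1:**
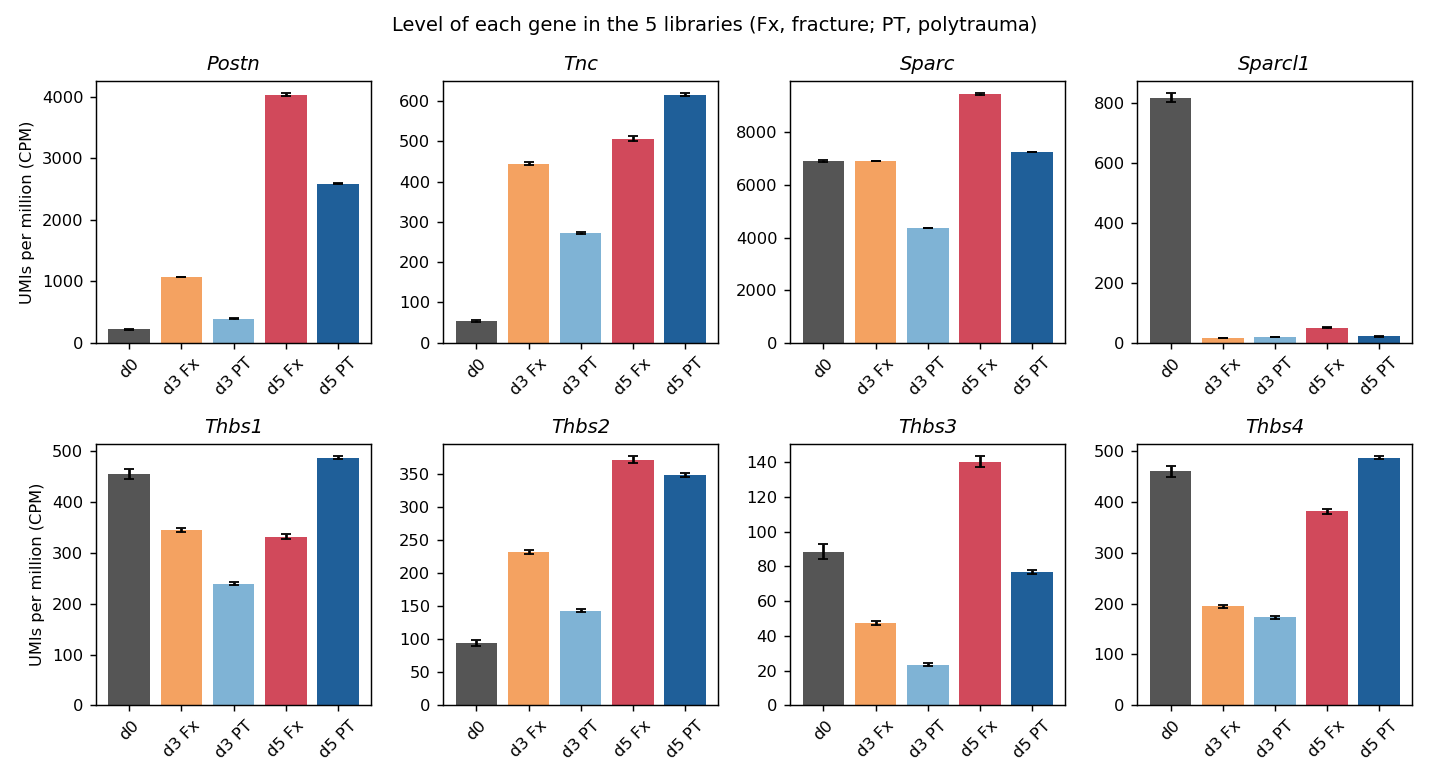
Level of each gene (vertical axis, UMIs per 1000000, CPM) in the 5 libraries (horizontal axis; Fx, fracture; PT, polytrauma), with exact Poisson 95% intervals for counting error and 1 library per condition. Postn, Tnc and Thbs2 are lowest at d0, Sparcl1 is highest there at 817 CPM, and Thbs3 and Thbs4 are lowest in the d3 libraries.

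At d3 post-fracture 3 members, Postn, Tnc and Thbs2, stood at least 2-fold above d0, and their sequences before the RefSeq start (GRCm38.p6) are shown to allow them to be compared. The table of promoters had entries for 6 of the 8 members. Capitals mark TATAAA on the given strand and GGGCGG on either strand. Where a gene has several starts, the one nearest to the start of the gene model used here is shown.
Postn, chr3:54360857-54361106, plus strand: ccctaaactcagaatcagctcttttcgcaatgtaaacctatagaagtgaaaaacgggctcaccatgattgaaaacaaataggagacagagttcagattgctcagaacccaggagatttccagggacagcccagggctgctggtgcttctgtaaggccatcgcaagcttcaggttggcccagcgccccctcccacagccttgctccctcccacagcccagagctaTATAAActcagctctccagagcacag
Tnc, chr4:64047016-64047265, minus strand: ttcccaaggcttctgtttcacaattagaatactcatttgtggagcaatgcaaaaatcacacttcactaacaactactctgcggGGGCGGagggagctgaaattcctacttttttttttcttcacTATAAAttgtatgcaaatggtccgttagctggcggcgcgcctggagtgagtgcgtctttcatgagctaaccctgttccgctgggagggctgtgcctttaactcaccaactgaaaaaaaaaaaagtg
Thbs2, chr17:14694263-14694512, minus strand: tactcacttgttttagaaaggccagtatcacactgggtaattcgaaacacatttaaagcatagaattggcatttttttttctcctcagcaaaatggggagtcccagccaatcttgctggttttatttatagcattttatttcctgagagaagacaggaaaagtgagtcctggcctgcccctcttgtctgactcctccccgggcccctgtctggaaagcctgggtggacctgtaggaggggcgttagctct

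TATAAA began 26 bases before the start in Postn and 126 bases before it in Tnc, and these letters were not in the Thbs2 sequence. Over all 32851 promoters of 300 bases (250 before and 50 after the start), 8.32% held TATAAA on the given strand. GGGCGG was in the Tnc sequence and in 35.7% of all promoters. TGANTCA, the letters bound by AP-1, was in 7.81% of promoters and GGAATG, the letters bound by TEAD factors, in 14.7%, and neither was in the 3 sequences on either strand. The Thbs4 promoter held GGAATG at 2 places. A match of letters is a description and not a binding site.

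Compared with d0, Tnc was 8.23-fold higher at d3 post-fracture (log2 ratio 3.04, 95% interval 2.95 to 3.14), Postn 4.87-fold (2.28, 2.24 to 2.33) and Thbs2 2.47-fold (1.30, 1.23 to 1.38). Sparcl1 was 49.7-fold lower (log2 ratio -5.64, -5.71 to -5.56) and Thbs4 2.36-fold lower (-1.24, -1.28 to -1.20). Sparc (-0.0024, -0.011 to 0.0064), Thbs1 (-0.40) and Thbs3 (-0.90) lay within 2-fold. Thus 3 of 8 members (37.5%) were at least 2-fold higher and 2 of 8 (25.0%) at least 2-fold lower, beside 12.5% and 25.1% of the 9388 genes with a mean of at least 5 CPM. The median log2 ratio was -0.20 over the members and -0.27 over all genes. The share of members lower was near that of all genes.

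At d3 post-polytrauma Tnc was again higher than at d0, by 5.03-fold (log2 ratio 2.33, 2.24 to 2.43), and Sparcl1 41.7-fold lower (-5.38, -5.45 to -5.32). Thbs3 (-1.91) and Thbs4 (-1.41) were also at least 2-fold lower. Postn (0.83), Thbs2 (0.61), Sparc (-0.67) and Thbs1 (-0.93) stayed within 2-fold, the first 2 above d0 and the others below it. In all, 1 member (12.5%) was higher and 3 (37.5%) were lower, beside 11.6% and 24.9% of all genes. The median was -0.80 over the members and -0.29 over all genes. With the conditions as deposited, this comparison gave 3 members higher and 1 lower. The share of all genes was not computed for that exchange. Both comparisons share the d0 library, so they are not independent of each other.

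Set directly against d3 post-fracture, d3 post-polytrauma had lower levels of 7 of the 8 members. Postn (log2 ratio -1.45, -1.47 to -1.43) and Thbs3 (-1.01, -1.08 to -0.94) were at least 2-fold lower, which is 25.0% of the members beside 1.84% of all genes. No member was at least 2-fold higher, beside 1.65% of all genes. Tnc was at -0.71, Thbs2 at -0.70, Sparc at -0.66, Thbs1 at -0.53 and Thbs4 at -0.17, while Sparcl1 was at 0.25. The members' median was -0.68 and that of all genes -0.03. Thbs3 stood at the 2-fold limit. Without barcodes found in several libraries only 1 member was 2-fold lower. With the conditions as deposited 3 were higher and 0 lower, beside 32.9% and 4.39% of all genes, with Postn at 1.92 and Thbs3 at 1.56. The share of members higher was then near that of all genes.

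From d3 to d5 post-fracture, 3 members (37.5%) were at least 2-fold higher and 0 lower, beside 32.9% and 4.39% of all genes. These were Postn (log2 ratio 1.92, 1.91 to 1.93), Sparcl1 (1.60, 1.51 to 1.69) and Thbs3 (1.56, 1.51 to 1.62). Thbs4 (0.97) and Thbs2 (0.68) were within 2-fold above d3, Sparc was at 0.45 and Tnc at 0.19, and Thbs1 was at -0.057 (-0.083 to -0.030). The share of members was near that of all genes, whose median of 0.53 was itself above 0 (members, 0.82). From d3 to d5 post-polytrauma, 6 members (75.0%) were at least 2-fold higher and 0 lower, beside 25.2% and 3.44% of all genes. The 6 were Postn (2.72, 2.71 to 2.74), Thbs3 (1.71), Thbs4 (1.49), Thbs2 (1.28), Tnc (1.18) and Thbs1 (1.03). Sparc (0.73) and Sparcl1 (0.11) were within 2-fold, and the median was 1.23 over the members and 0.46 over all genes. With the conditions as deposited, 0 members were higher and 2 lower from d3 to d5 post-fracture, beside 1.65% and 1.84% of all genes. From d3 to d5 post-polytrauma 0 were then higher and 1 lower, beside 1.4% and 6.98%. These d5 against d3 values cross the 2 sets of barcodes.

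At d5, polytrauma against fracture gave lower Sparcl1 (log2 ratio -1.23, -1.31 to -1.16), the one member (12.5%) at least 2-fold lower beside 6.98% of all genes. This rests on few cells, as 37 pericyte-like cells held 56.2% of Sparcl1 UMIs at d5 post-fracture. The other cells there were at 22.1 CPM. Its log2 ratio was -0.97 within FAP/MP-like and 0.88 within tenocyte-like cells. No member was 2-fold higher, beside 1.4% of all genes. Thbs3 (-0.87), Postn (-0.64), Sparc (-0.38) and Thbs2 (-0.092) were lower within 2-fold. Thbs1 (0.55), Thbs4 (0.35) and Tnc (0.28) were higher within 2-fold. The members' median was -0.24 and that of all genes -0.01. With the conditions as deposited 6 members were higher and 0 lower, beside 25.2% and 3.44% of all genes.

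**Figure D2:**
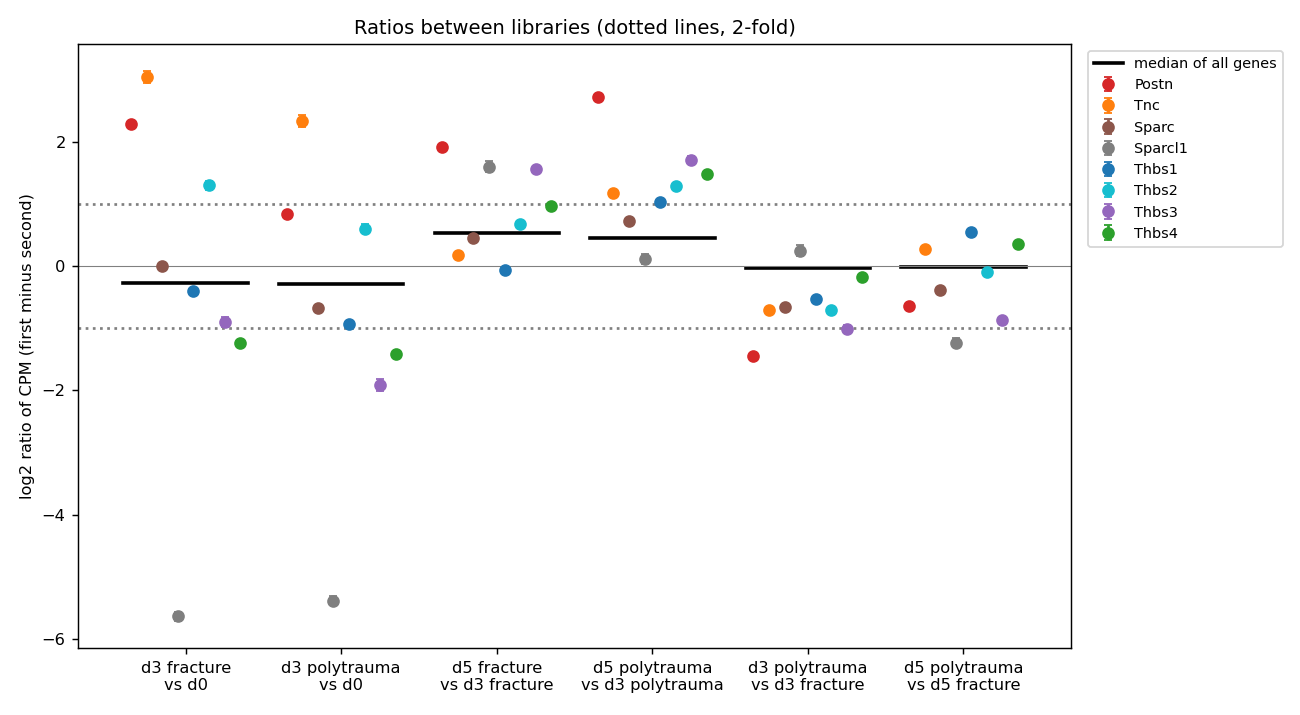
Log2 ratio of CPM (vertical axis) of the 8 members in 6 comparisons (horizontal axis), with 95% intervals for counting error, the median of all 9388 genes as a black bar and 2-fold as dotted lines. Sparcl1 is far below d0 at d3 after both injuries, at -5.64 and -5.38, and 7 of the 8 members are below 0 for d3 polytrauma against d3 fracture.

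Part of these calls changed with the scaling. The median log2 ratio of all genes, -0.27 and -0.29 for d3 post-fracture and post-polytrauma against d0 in CPM, was 0.31 and 0.24 under median-of-ratios scaling, and for the other 4 comparisons, in the order of the plot, -0.20, -0.03, -0.08 and 0.19. Under median-of-ratios scaling 14 of the 21 ratios of at least 2-fold kept their call, and none of the 21 changed sign. The ratio of Sparc at d3 post-fracture against d0 was then 0.58 and that of Thbs1 0.18, while Tnc, Sparc and Thbs2 went to -0.55, -0.28 and -0.06 for d5 against d3 post-fracture. Postn kept its order of the 2 injuries on both days and stayed above d0 at d3 after both.

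The shares of cells with at least 1 UMI were compared after drawing 2000 UMIs from each cell, since the libraries differed in depth. This left out 744, 225, 83, 30 and 424 shallower cells at d0, d3 post-fracture, d3 post-polytrauma, d5 post-fracture and d5 post-polytrauma. Postn was found in 9.47% of d0 cells (exact binomial 95% interval, 8.56 to 10.4), 74.6% (73.4 to 75.7) at d3 post-fracture, 45.6% (44.3 to 46.9) at d3 post-polytrauma, 92.4% (90.9 to 93.7) at d5 post-fracture and 90.9% (90.4 to 91.5) at d5 post-polytrauma. Without thinning these were 12.6%, 93.5%, 84.1%, 98.1% and 99.1%. The d0 share was the lowest, and the 2 d5 libraries overlapped in share while differing in level. Tnc was found in 5.71%, 48.1%, 33.7%, 47.6% and 57.0% of cells in the same order. Sparcl1 went the other way, from 56.7% (55.2 to 58.3) at d0 to 3.47% and 4.14% at d3 and 7.02% and 4.22% at d5 post-fracture and post-polytrauma. Sparc was found in 94.3% of d0 cells and in 98.7% to 99.9% after injury.

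Thbs1 was found in 36.4% of d0 cells and in 33.6% to 47.0% after injury, and Thbs2 in 12.1% at d0 and 25.0% to 48.3% after injury. Thbs3 was in 15.3% of d0 cells, 9.04% at d3 post-fracture, 5.18% at d3 post-polytrauma, 24.8% at d5 post-fracture and 15.4% at d5 post-polytrauma. Thbs4 was in 13.3% of d0 cells and in 19.3%, 15.1%, 28.6% and 34.6% of cells in the other libraries, whereas its d0 level was the second highest in CPM. At d0 a cell with Thbs4 held 6.34 thinned UMIs on average, and the 10% of cells with the most Thbs4 held 96.0% of its UMIs. At d5 post-polytrauma a positive cell held 3.26 UMIs and the top 10% of cells held 65.3%. Because of that mismatch no order is read from the shares of Thbs4.

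As a comparison that bears on free RNA in droplets, the same shares were taken in cells with at least 2 hematopoietic markers, of which 11, 48, 138, 48 and 79 had 2000 UMIs. Their median depth before thinning was 3448, 11905, 5226.5, 38650 and 14481 UMIs, against 3641, 18015, 15816, 34859 and 15760 UMIs in the other cells. Postn was in 0 of these 11 cells at d0 (interval up to 28.5%), 45.8% at d3 post-fracture, 28.3% at d3 post-polytrauma, 87.5% at d5 post-fracture and 84.8% at d5 post-polytrauma. At d5 the Postn intervals of these cells (74.8% to 95.3% and 75.0% to 91.9%) overlapped those of all cells, so the d5 shares of Postn are not read as shares of expressing cells. Of the 40 shares, 12 were at or below that of the hematopoietic cells and are not read as expression or as a difference: Thbs1 in all 4 libraries after injury, Thbs4 at d0 and in both fracture libraries, Thbs3 in both fracture libraries, Tnc at d0 and d5 post-fracture, and Sparcl1 at d3 post-polytrauma. These cells are no clean blank for Thbs1, which was high in hematopoietic-like clusters. At d5 post-fracture no hematopoietic-like cluster was separate, and hematopoietic markers summed to 15.5 CPM, the lowest of all libraries. The cells with these markers were deeper there than the others, and the marker Lyz2 led the tenocyte-like cells. Whether they are hematopoietic was not tested, so their shares at d5 post-fracture are not read as free RNA. At d0 the comparison rests on 1 and 2 of 11 cells for Tnc and Thbs4 (intervals up to 41.3% and 51.8%), while 44.9% and 82.0% of thinned tenocyte-like cells held them. For another 12 the interval lay wholly above, among them Sparcl1 at d0, Postn, Tnc and Sparc at d3 after both injuries, and Sparc, Thbs2 and Thbs4 at d5 post-polytrauma. How much of each share is free RNA, doublets or expression in those cells was not tested.

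**Figure D3:**
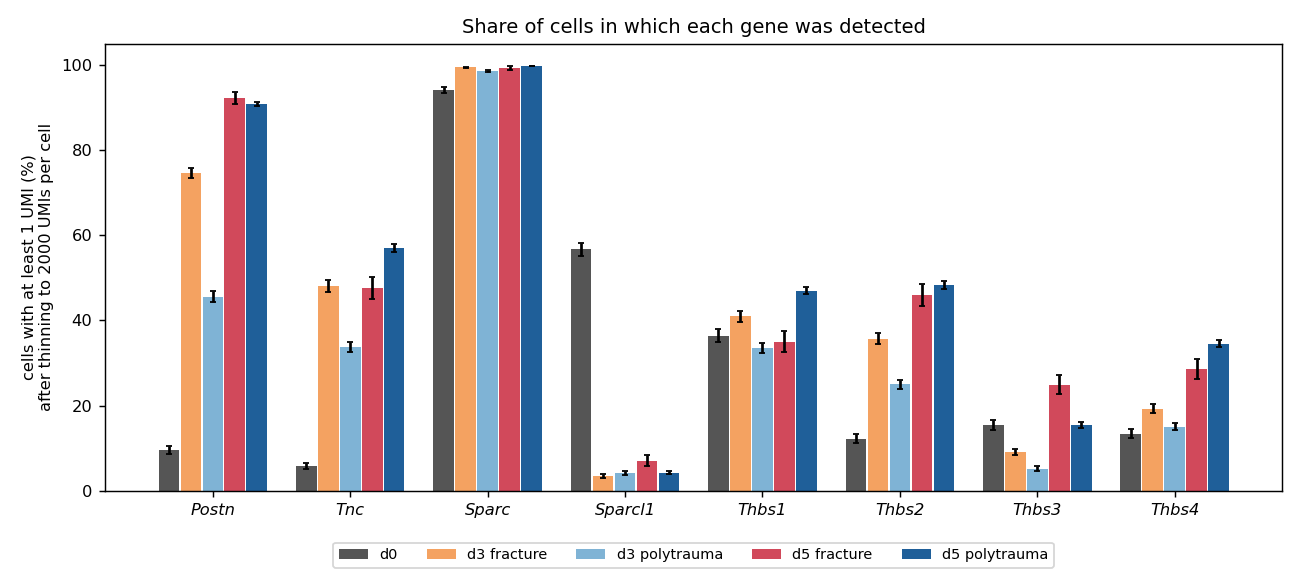
Share of cells with at least 1 UMI (vertical axis, %) of each gene (horizontal axis) in the 5 libraries after thinning to 2000 UMIs per cell, with exact binomial 95% intervals. Postn runs from 9.47% at d0 to 92.4% at d5 post-fracture, Sparcl1 from 56.7% at d0 to at most 7.02% after injury, and Sparc is at 94.3% or more in all 5 libraries. The d5 shares of Postn are not read as shares of expressing cells.

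Cells of each library were clustered with the 8 members left out of the clustering, and clusters were called FAP/MP-like, tenocyte-like, pericyte-like and so on from marker lists. No FAP/MP-like or fibroblast-like cluster had a marker of its own list among its 10 leading genes. The same held for a dividing-like cluster of 1395 cells at d3 post-fracture. These names rest on markers raised over the other clusters. At d0 the classes were FAP/MP-like (65.6% of cells), pericyte-like (16.1%), tenocyte-like (9.69%), perineurial-like (3.00%) and unnamed (5.53%). Most UMIs of Tnc and Thbs4 at d0 were in tenocyte-like cells. The 449 tenocyte-like cells, in 2 clusters led by Wif1, 1500015O10Rik, Bglap2, Chad and Fmod and by Chodl and Col22a1, held 89.8% of Tnc UMIs and 90.3% of Thbs4 UMIs. Bglap2 is an osteoblast marker, at 48.5 CPM at d0, and at a resolution of 1 a cluster of 68 osteoblast-like cells stood apart there, with 80.3% of Tnc UMIs and 88.1% of Thbs4 UMIs in tenocyte-like cells. The tenocyte-like cells also held 62.0% of Thbs2, 47.7% of Sparc and 44.5% of Postn UMIs, with 12.7% of all UMIs. Tnc was at 383 CPM in them and 2.94 CPM (31 UMIs; 2.00 to 4.17) in FAP/MP-like cells, and Thbs4 was at 3275 CPM against 50.5 CPM. Sparc reached 26081 CPM in tenocyte-like cells against 4791 CPM in FAP/MP-like and 1068 CPM in pericyte-like cells.

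The other members had other homes at d0. Sparcl1 was highest in pericyte-like cells (2200.3 CPM, with 49.7% of its UMIs). It was 1039 CPM in perineurial-like, 514 CPM in FAP/MP-like and 267 CPM in tenocyte-like cells. Thbs1 was also highest in pericyte-like cells, at 994 CPM. It was 726 CPM in perineurial-like, 558 CPM in tenocyte-like and 242 CPM in FAP/MP-like cells. Thbs3 had 76.2% of its UMIs in FAP/MP-like cells, which held 60.5% of all UMIs at d0. Its level was 111 CPM in them and 95.5 CPM in tenocyte-like cells. Postn in FAP/MP-like cells came mostly from 1 of 5 clusters. That cluster, led by Mrgprg, Stmn4 and Smpd3, held Postn at 505 CPM, and the other 4 were between 8.85 and 46.7 CPM.

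After injury Tnc was no longer largely in tenocyte-like cells, which then held 2.97% to 13.6% of its UMIs. In FAP/MP-like cells Tnc was 359 CPM at d3 post-fracture and 319 CPM at d3 post-polytrauma, 270.26 CPM at d5 post-fracture and 518 CPM at d5 post-polytrauma, all far above the 2.94 CPM of d0. Its level in tenocyte-like cells stayed between 345 and 553 CPM in all 5 libraries, the highest at d5 post-fracture, where that name is less sure. Dividing-like cells, 37.9% and 35.8% of cells at d3 post-fracture and post-polytrauma, held 50.8% and 45.3% of Tnc UMIs there and 50.1% and 48.9% of all UMIs. Their Tnc level was near that of the other cells, 451 against 439 CPM and 252 against 291 CPM. The highest Tnc at d5 post-fracture was in fibroblast-like cells, at 1064.5 CPM. At d5 post-polytrauma these were at 819 CPM, and 1 FAP/MP-like cluster, led by Lars2 and mitochondrial genes, was at 1053 CPM. Whether the cells of that cluster were of low quality was not tested.

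Thbs4 shows how the sum over a library can hide opposite values in its classes. In tenocyte-like cells it was 3275 CPM at d0, 1888 CPM at d3 post-fracture, 1085 CPM at d3 post-polytrauma, 450.07 CPM at d5 post-fracture and 2354 CPM at d5 post-polytrauma, lower than d0 in every library after injury. In FAP/MP-like cells it was 50.5, 197, 124, 548 and 797 CPM in the same order, higher than d0 in every one. Within FAP/MP-like cells the log2 ratio to d0 was 1.96 (1.83 to 2.10) at d3 post-fracture and 1.30 (1.16 to 1.44) at d3 post-polytrauma, opposite in sign to the -1.24 and -1.41 of the whole libraries. Leaving out the tenocyte-like cells gave 1.18 and 0.64. The tenocyte-like cells of d5 post-fracture were led by Lyz2, Ctsc and Slc40a1 and had less Thbs4 than the FAP/MP-like cells there. Their 10 leading genes held 1 tenocyte marker, Tnmd, and 1 hematopoietic marker, Lyz2. They were 16.1% of cells there, against 5.21% at d5 post-polytrauma. These cells need not be of the type that carries this name in the other libraries. Tenocyte markers (6 genes) summed to 2018 CPM at d0 and to 163, 64.0, 528 and 210.35 CPM in the other libraries. Kera was 196 CPM at d0 and at most 7.44 CPM after injury, and Tnmd, Mkx, Fmod and Chodl were also below d0 throughout. Scx went another way at d5. It was 10.5 CPM at d0, 2.33 and 0.649 CPM at d3, and 45.7 and 35.6 CPM at d5, post-fracture and post-polytrauma. The part of cell capture and of changes within cells in these values was not tested.

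Other members were compared within FAP/MP-like cells in the same way. There Postn was 188.5, 1669.6, 668, 4902 and 3803 CPM at d0, d3 post-fracture, d3 post-polytrauma, d5 post-fracture and d5 post-polytrauma, the order of the whole libraries. Against d0, Tnc was at a log2 ratio of 6.93 (6.43 to 7.49) at d3 post-fracture, Postn at 3.15, Thbs2 at 2.72, Sparc at 1.05 and Thbs1 at 1.0015, beside a median of -0.27 over all genes in these cells. Sparcl1 was at -4.83 (-4.99 to -4.67) there, from 514 to 18.1 CPM, and at -5.32 at d3 post-polytrauma. The 21.1% of d3 post-fracture Sparcl1 UMIs in this class and the 55.1% in pericyte-like cells, which were 2.13% of cells, made up most of what was left. FAP/MP-like cells were 27.4% of cells at d3 post-fracture, 26.2% at d3 post-polytrauma, 35.5% at d5 post-fracture and 35.7% at d5 post-polytrauma. They were set by markers in each library on its own and need not be the same cells over time. Tenocyte-like cells did not show the same rises. Within them the log2 ratio at d3 post-fracture against d0 was -0.04 for Tnc, 0.20 for Postn and -0.79 for Thbs2. It was -1.40 for Sparc and -0.45 for Thbs1. Sparc thus went opposite ways in these classes, while its ratio over the whole libraries was -0.0024.

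Sparcl1 was highest in pericyte-like cells in every library, and these cells were a smaller share of the cells after injury. They were 16.1% of cells at d0, 2.13% at d3 post-fracture, 0.871% at d3 post-polytrauma, 2.52% at d5 post-fracture and 0.930% at d5 post-polytrauma. Sparcl1 in them was 2200.3, 1119, 568, 2128 and 505 CPM in that order. The class held different clusters at d3. Post-fracture it joined a cluster of 69 cells led by Myh11 at 2182 CPM and one of 50 cells led by Rgs5 at 469 CPM (411 to 533). The latter interval overlapped that of the single d3 post-polytrauma cluster (497 to 646), also led by Rgs5. At d5 post-fracture a cluster of 19 cells led by Myh11, Mustn1 and Pln reached 3472 CPM and the one of 18 cells led by Rgs5 1188 CPM, both above the single d5 post-polytrauma cluster. Pericyte-like cells held 56.2% of Sparcl1 UMIs at d5 post-fracture and 17.4% at d5 post-polytrauma. Sparc differed between pericyte-like clusters of the same library. It was 1068 CPM at d0, where there was 1 such cluster. At d3 post-fracture it was 2082 CPM in the cluster of 69 cells and 10040.0 CPM in that of 50 cells, and at d5 post-fracture 993 CPM in the Myh11 cluster and 7501 CPM in the cluster of 18 cells led by Rgs5. The single clusters of d3 and d5 post-polytrauma held 5953 and 6739 CPM.

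Cells with at least 2 hematopoietic markers were 0.302% of cells at d0, 0.966% at d3 post-fracture, 2.55% at d3 post-polytrauma, 3.34% at d5 post-fracture and 0.729% at d5 post-polytrauma. These markers were counted at full depth, with medians of 3640 UMIs per cell at d0 and 34949 at d5 post-fracture. Their summed levels were 42.9 and 15.5 CPM in these libraries, so no order is read from the shares. A hematopoietic-like cluster was separate in the d3 and d5 post-polytrauma libraries, of 100 and 29 cells, and at a resolution of 1 also at d3 post-fracture, of 29 cells. Thbs1, which macrophages and platelets also make, was 1065 CPM in that cluster at d3 post-polytrauma against 235 CPM in the other cells, and 707 CPM against 486 CPM at d5 post-polytrauma. These clusters held 2.23% and 0.205% of Thbs1 UMIs. Leaving out all cells with at least 2 hematopoietic markers in every library kept all 21 calls of at least 2-fold. Postn in the same clusters was 73.7 and 843 CPM, against 393 and 2589 CPM in the other cells. At d5 post-polytrauma the highest Thbs1, 1105 CPM, was in a FAP/MP-like cluster led by Ankrd1, Lcn2 and Ereg.

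Chondrocyte-like cells, with Col2a1 as their leading gene, were 175 cells (11.9%) at d5 post-fracture and 351 cells (2.94%) at d5 post-polytrauma. Their Thbs3 was 172 and 131 CPM, above the 134 and 76.1 CPM of the other cells, whereas Postn was 2182 and 1732 CPM, below the 4402 and 2597 CPM of the others. Thbs2 (164 and 132 CPM) and Thbs1 (144 and 176 CPM) were also below the other cells in both libraries. The Thbs3 level was not particular to chondrocyte-like cells. At d5 post-fracture FAP/MP-like clusters held Thbs3 at 117 to 242 CPM. At d5 post-polytrauma FAP/MP-like clusters held it at 40.3 to 170 CPM and fibroblast-like cells at 140 CPM. Of the 351 cells, 236 carried barcodes shared with another library, and their cluster's median depth was 1400 UMIs. In the 115 cells without such barcodes Thbs3 was 131 CPM and Postn 1532 CPM.

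**Figure D4:**
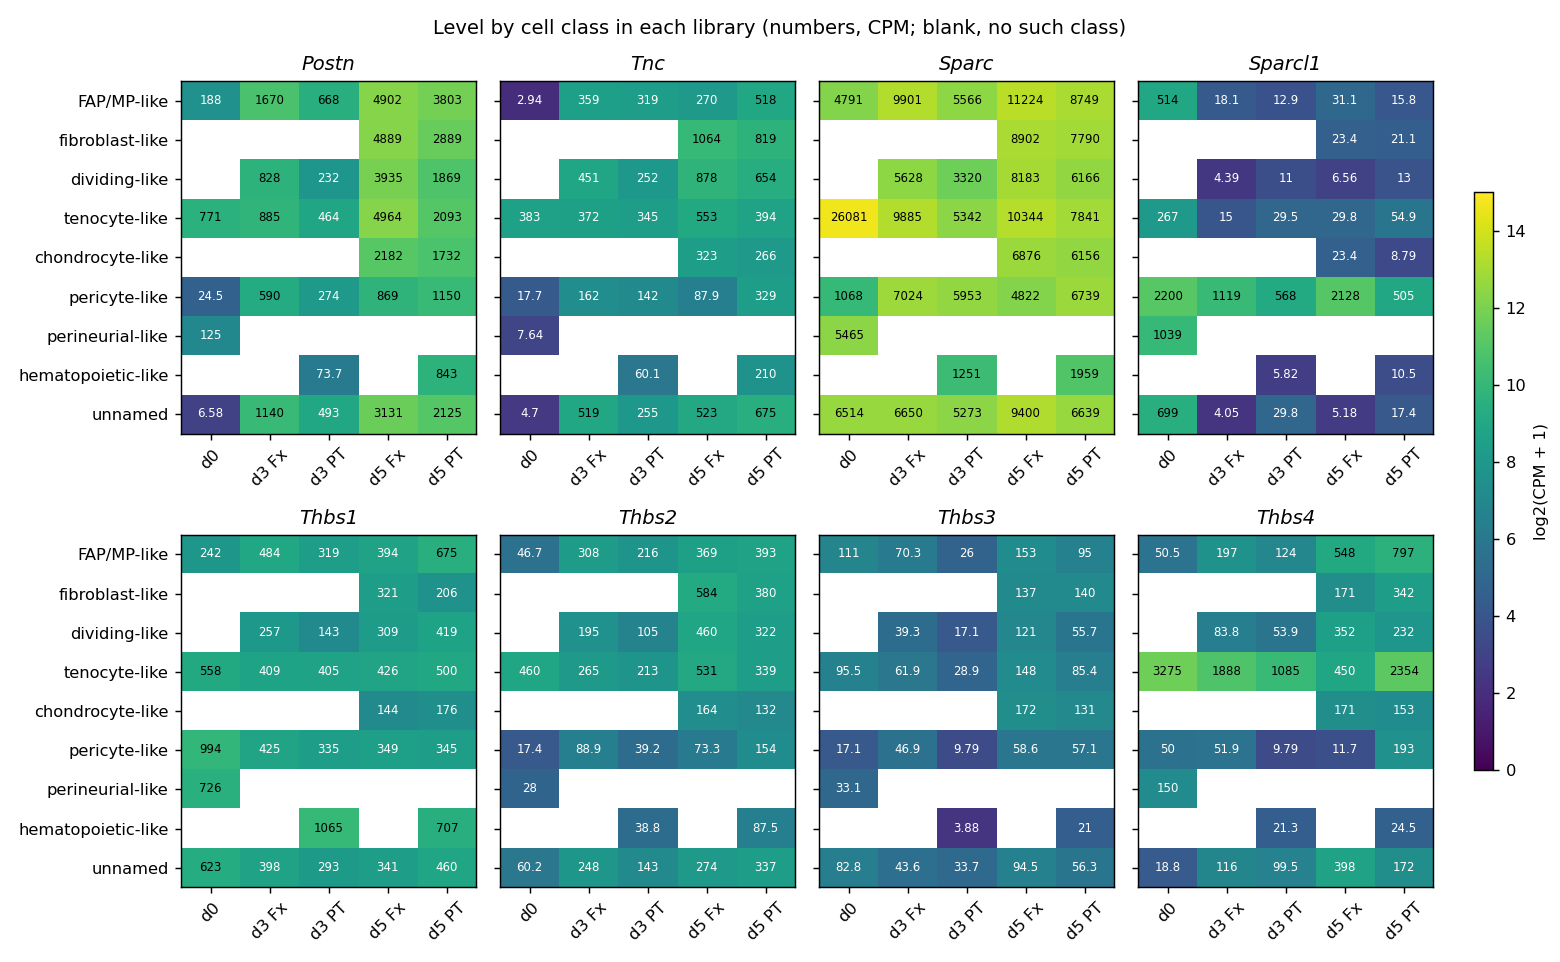
Level of each gene by cell class (rows) and library (columns), with CPM printed in each field, color as log2(CPM + 1), and blanks where a library had no such class. Thbs4 and Sparc are highest in tenocyte-like cells at d0, Sparcl1 in pericyte-like cells of every library, and Tnc in FAP/MP-like cells goes from 2.94 CPM at d0 to at least 270.26 CPM after injury.

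**Figure D5:**
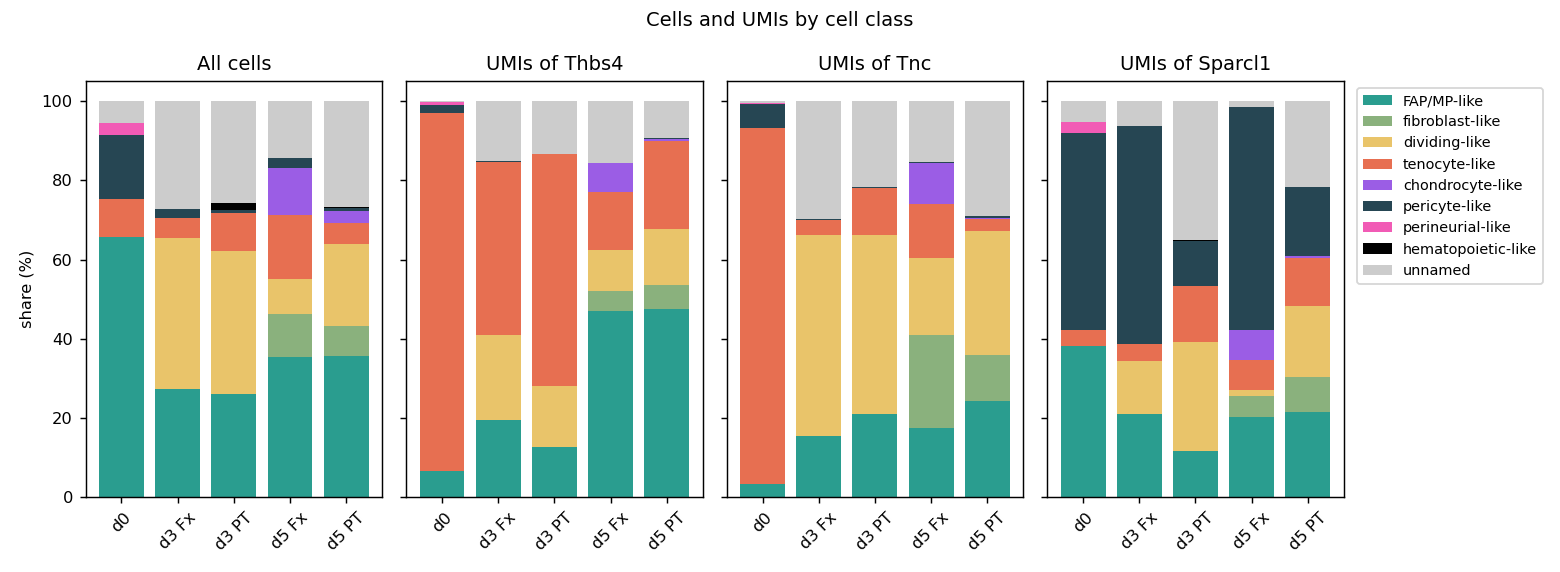
Share (vertical axis, %) of all cells and of the UMIs of Thbs4, Tnc and Sparcl1 that each cell class held in each library (horizontal axis). Tenocyte-like cells hold 90.3% of Thbs4 and 89.8% of Tnc UMIs at d0, and 2.97% of Tnc UMIs at d5 post-polytrauma.

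Across cells of 1 library, correlations of log-scaled thinned UMIs describe which members were found together. They share depth and library and are given with no test. At d0 (3888 cells) the highest was Tnc with Thbs4 (Pearson r 0.54, Spearman rho 0.49), followed by Sparc with Thbs4 (0.48, 0.39) and Thbs2 with Thbs4 (0.40, 0.35). After injury Tnc with Thbs4 lay between -0.03 and 0.05. Postn with Sparc went from 0.19 at d0 to 0.33 and 0.38 at d3 and 0.41 and 0.46 at d5, post-fracture and post-polytrauma. Sparc with Sparcl1 was at -0.36 at d0 and between -0.35 and 0.04 after injury.

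The 3 genes outside the members with the highest mean correlation over the 5 libraries, among 3979 genes, were collagen or matrix genes for Postn (Col1a1 0.43, Col1a2 0.40, Fn1 0.38) and Sparc (Col1a2 0.61, Col1a1 0.59, Col3a1 0.51). Thbs2 was nearest to Col1a1 (0.28), Col1a2 (0.26) and Cthrc1 (0.18). Thbs4 was nearest to Tnmd (0.48), Fmod (0.40) and Mgp (0.33), the first 2 being tenocyte markers here. For Thbs4 and Tnmd the correlation was 0.82 at d0 and 0.31 at d5 post-fracture. Sparcl1 was nearest to the contractile genes Mylk (0.37), Myl9 (0.34) and Tagln (0.33), over 0.10 to 0.57 for Mylk, with the lowest values in the polytrauma libraries. Tnc (Timp1 0.18), Thbs1 (Tagln 0.16) and Thbs3 (Col3a1 0.12) had no gene above 0.20 on average, and correlations as weak as these are no finding in sparse counts.

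Other genes of the pathway were counted in the same way. The shares of all genes at least 2-fold higher and lower, beside which each count is to be read, were 12.5% and 25.1% at d3 post-fracture and 11.6% and 24.9% at d3 post-polytrauma against d0, 32.9% and 4.39% for d5 against d3 post-fracture, 25.2% and 3.44% for d5 against d3 post-polytrauma, and 1.65% and 1.84% at d3 and 1.4% and 6.98% at d5 for polytrauma against fracture. Nothing is called particular to a list. Of the other matricellular genes, 13 of 17 passed the mean of 5 CPM. At d3 post-fracture 4 of these 13 were at least 2-fold above and 6 below d0, with Tnxb, a tenascin of resting connective tissue, going from 325 to 6.46 CPM and Tnn, tenascin W, from 5.28 to 87.0 CPM. Spock2 went from 27.8 to 1.53 CPM and the CCN protein Nov from 115 to 14.9 CPM. At d3 post-polytrauma 4 were above and 7 below d0, and Comp, the fifth thrombospondin, was 19.6 CPM against 225 CPM. From d3 to d5, 9 were higher and 1 lower post-fracture, led by Comp (51.9 to 685 CPM), and 6 higher and 2 lower post-polytrauma, led by Tnn (14.2 to 204 CPM) and the CCN protein Ctgf (11.3 to 129.9 CPM). Polytrauma against fracture gave 0 higher and 5 lower at d3, with Tnn at 14.2 against 87.0 CPM. At d5 it gave 0 higher and 7 lower, with Tnxb at 3.39 against 72.1 CPM and Comp at 98.0 against 685 CPM. The medians of this list were -0.90, -2.59, 1.41, 0.97, -0.82 and -1.07 for the 6 comparisons in the order above (d3 post-fracture and d3 post-polytrauma against d0, d5 against d3 post-fracture and post-polytrauma, polytrauma against fracture at d3 and d5), beside -0.27, -0.29, 0.53, 0.46, -0.03 and -0.01 over all genes.

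Of the receptors and partners, 13 of 16 passed the filter, and 2 were higher and 6 lower than d0 at d3 after each injury. The integrin subunit Itga8 went from 39.6 CPM at d0 to 0.46 and 0.44 CPM and the calcium channel subunit Cacna2d1, a thrombospondin receptor, from 42.0 to 9.84 and 10.8 CPM at d3 post-fracture and post-polytrauma, while syndecan 1 (Sdc1) went from 12.1 to 62.2 and 80.1 CPM. From d3 to d5, 5 were higher and 1 lower post-fracture and 3 higher and 0 lower post-polytrauma, with integrin beta 1 (Itgb1) from 158 to 429 and from 147 to 470.12 CPM. Polytrauma against fracture gave 0 and 0 at d3 and 1 higher and 2 lower at d5, the higher one being Itga5 (182 against 73.8 CPM). The medians were -0.80, -0.82, 0.81, 0.45, 0.13 and -0.12 in the same order, beside -0.27, -0.29, 0.53, 0.46, -0.03 and -0.01 over all genes. All genes at least 2-fold higher and lower were 12.5% and 25.1% at d3 post-fracture and 11.6% and 24.9% at d3 post-polytrauma against d0.

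Of the processing and matrix partners, 6 of 7 passed. Higher and lower counts were 2 and 1 at d3 post-fracture, 1 and 2 at d3 post-polytrauma, 4 and 0 for d5 against d3 post-fracture, 3 and 0 for d5 against d3 post-polytrauma, 0 and 0 for polytrauma against fracture at d3, and 0 and 2 at d5. Lox, the collagen cross-linking enzyme, went from 109 CPM at d0 to 588 and 471 CPM at d3 post-fracture and post-polytrauma, and the protease Adamts1 from 391 to 143 and 110.38 CPM. Fibronectin (Fn1), which binds Tnc and Postn, went from 1153.5 to 3225 CPM from d3 to d5 post-fracture and from 748 to 2404 CPM post-polytrauma. All 5 TGF-beta inputs passed, with 0 and 2, 0 and 4, 2 and 0, 2 and 0, 0 and 1, and 0 and 0 genes higher and lower in the same order, beside the shares of all genes given for each comparison. The medians of the processing list were 0.05, -0.30, 1.215, 1.017, -0.37 and -0.65 and those of the TGF-beta inputs -0.90, -1.68, 0.70, 0.94, -0.38 and -0.21, beside -0.27, -0.29, 0.53, 0.46, -0.03 and -0.01 over all genes. Tgfbr2 went from 173 CPM at d0 to 49.3 and 34.6 CPM at d3. Tgfb1 was 6.77, 3.62 and 3.098 CPM at d0, d3 post-fracture and d3 post-polytrauma and 49.3 and 59.3 CPM in the d5 libraries, and thus followed the sets of barcodes as well as the day.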

How the data were processed

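Per the labels and the methods of the study, GFP+ cells were sorted from hindlimb muscle, and libraries were prepared with a 10x Genomics kit (version 2 in the labels). The authors aligned reads to mm10 and deposited raw UMI counts per gene and cell barcode, without normalization. Cell Ranger 3.1.0 stands in the matrix headers, whereas the methods name a later version. The submitters' processing notes name Seurat 3.1.2. How strand was counted is not given in the sources used here.

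Cells with 350 to 8000 genes, under 20% mitochondrial UMIs and at least 1000 UMIs were kept, 29831 of 34439 barcodes, with 474766330 UMIs. UMIs were summed per library and scaled to 1000000 (CPM), with exact Poisson 95% intervals for levels, conditional binomial intervals for ratios and Clopper-Pearson intervals for shares. A ratio of at least 2-fold was called, over genes with a mean of at least 5 CPM. Cells were thinned to 2000 UMIs for shares and correlations. Clusters were computed in scanpy 1.11.5 with leidenalg 0.10.2 from 2000 variable genes without the members, 20 principal components and a resolution of 0.5, for each library separately. A cluster took a type's name from marker lists, by a rule settled after clusters had been seen. Possible doublets were kept. The automatic threshold of Scrublet called 0 to 5 cells per library and so had not worked. As an alternative, 17 to 1141 cells with the highest scores were left out of each library. Barcodes in several libraries were kept, and those without at least 10 times the UMIs of their copy are called shared (11 to 338 cells per library). Positions came from GENCODE M21 (GRCm38) and promoters from RefSeq (GRCm38.p6). The ratio computation was tested on simulated data. Scripts ran in Python 3.11.15; intervals used scipy 1.17.1, tables pandas 2.3.3 and numpy 2.4.6, and plots matplotlib 3.10.9.

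The members and lists were chosen with earlier results of these data known. The text names all members, at most 4 genes per list and comparison (those with the largest ratio past 2-fold), and the 3 genes most correlated with each member. Leading genes of clusters, Mtx1 and single clusters were named after their values were seen.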

Additional observations from a re-analysis of the deposited data

Results flagged for a closer look

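In CPM over whole libraries, the step from d3 to d5 differed in sign between the injuries for 1 member. The log2 ratio of Thbs1 was -0.057 (95% interval -0.083 to -0.030) post-fracture and 1.03 (1.007 to 1.05) post-polytrauma, from 344 to 331 CPM and from 239 to 486 CPM. With 1 library per condition the difference between these ratios was not tested. Under median-of-ratios scaling, where the median of all genes lay at -0.20 and -0.03, they were -0.79 and 0.54. In FAP/MP-like cells they were -0.30 and 1.08, and with the conditions as deposited -0.53 and 0.55. Within tenocyte-like cells they were 0.059 (-0.026 to 0.146) and 0.305, so no opposite sign was seen there. Thbs1 was not alone in FAP/MP-like cells or under median-of-ratios scaling. Tnc also differed in sign in FAP/MP-like cells, at -0.41 post-fracture and 0.70 post-polytrauma. Under median-of-ratios scaling Tnc, Sparc and Thbs2 were lower at d5 than d3 post-fracture and higher post-polytrauma, and Sparcl1 the reverse.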

How the results depend on the processing

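Of the 21 ratios of at least 2-fold, all 21 kept their call with at least 3000 UMIs per cell, with no minimum of UMIs, without hematopoietic cells and without possible doublets. In FAP/MP-like cells only, 15 kept their call; 6 members were higher and 1 lower at d3 post-fracture against d0, 4 were higher at d3 post-polytrauma against d0, and 0 were lower at d5 post-polytrauma against d5 post-fracture. Median-of-ratios scaling gave 1 member lower at d3 post-fracture and 3 higher at d3 post-polytrauma against d0, and 1 and 3 higher for d5 against d3 post-fracture and post-polytrauma. Weighting each cell equally, or leaving out tenocyte-like cells, gave 1 lower at d3 post-fracture and 3 higher at d3 post-polytrauma against d0. Equal weights also took Sparcl1 at d3 post-polytrauma against d3 post-fracture from 0.25 to -0.96. Leaving out shared barcodes, or every barcode found in another library, gave 1 member lower at d3 post-polytrauma against d3 post-fracture. Without every such barcode Sparcl1 at d5 was at 2.67 against d3 post-fracture, and Thbs1 at d5 post-polytrauma was at 0.99 against d3. Leaving out tenocyte-like cells and leaving out every barcode found in another library were chosen after seeing the data. Shares of all genes were not computed under the settings of this paragraph, so these counts of members have none beside them.

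Thbs4 against d0 changed sign at d3 post-fracture, to 1.18 without tenocyte-like cells and 1.96 in FAP/MP-like cells, and at d3 post-polytrauma, to 0.64 and 1.30. With the conditions as deposited 7 of the 21 calls held. Members higher and lower were then 3 and 1 for d3 post-polytrauma against d0, 0 and 2 for d5 against d3 post-fracture, 0 and 1 for d5 against d3 post-polytrauma, 3 and 0 for polytrauma against fracture at d3, and 6 and 0 at d5. The shares of all genes beside these counts are given with each comparison above, except for d3 post-polytrauma against d0. Ratios that changed sign were Thbs3 at d3 post-polytrauma against d0 (0.67), Postn (-1.45) and Thbs3 (-1.01) for d5 against d3 post-fracture, Postn (-0.64), Thbs2 (-0.092) and Thbs3 (-0.87) for d5 against d3 post-polytrauma, Postn (1.92) and Thbs3 (1.56) for polytrauma against fracture at d3, and Sparcl1 (0.11) at d5. Apart from this exchange of labels and the choice of cells, the cause of these changes was not tested.

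Clustering at a resolution of 0.3 or 1, or with the members among the variable genes, put 88.1% to 91.5% of d0 Thbs4 UMIs and 80.3% to 90.2% of d0 Tnc UMIs in tenocyte-like cells. Without the filter on low genes, the share of all genes at least 2-fold higher at d3 post-polytrauma than at d3 post-fracture was 13.6%, and lower 10.7%, and at d5 12.1% and 21.6%. For d3 against d0 it was 20.8% and 38.2% post-fracture and 21.6% and 36.1% post-polytrauma, and for d5 against d3 42.2% and 11.8% post-fracture and 32.4% and 12.8% post-polytrauma. No paired analysis was possible because each condition had 1 library. Depth limited the d0 shares most, where 744 cells had under 2000 UMIs, and a level in a class rests on few UMIs where the class is small, as for Tnc in FAP/MP-like cells at d0 (31 UMIs).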
